A study of Saccharomyces cerevisiae with 72 samples.

Results

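The genes described here make ergosterol in Saccharomyces cerevisiae and control how much of it is made. They are 31 genes: 24 of the synthesis route, 3 that pass electrons or haem to it, the activators UPC2 and ECM22, and the sterol acyltransferases ARE1 and ARE2. They were taken by gene name from the 5656 named genes that have a probe set of their own on the Affymetrix yeast array, and all 31 were bright enough to be tested. The series holds 72 arrays of 18 groups, 4 arrays each. Every strain grew in synthetic medium with 2% dextrose and 0.5% ammonium sulfate that lacked histidine but held the other amino acids. The strains were single deletions of GCN2, GCN4 or GLN3 (written gcn2, gcn4 and gln3), the double deletions gcn2 gln3 and gcn4 gln3, and wild type, which the labels call KY652. Each strain was given 3-aminotriazole (3-AT) at 10 mM, rapamycin at 200 nM, both for 1 h, or no stress. The labels do not say whether the 4 arrays of a group are 4 separate cultures. The p-values therefore speak only for the spread between arrays, and that spread may be technical.

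Ergosterol is the main sterol of yeast membranes and does there what cholesterol does in animal cells. Its carbon comes from acetyl-CoA through mevalonate to farnesyl diphosphate, then through squalene to lanosterol, and lanosterol is trimmed and rearranged to ergosterol by enzymes that need oxygen, haem and electron donors. When sterol runs short, the zinc cluster factors Upc2 and Ecm22 are known to switch on many of these genes, and sterol in excess is stored as esters by Are1 and Are2. 3-AT blocks the histidine enzyme His3 and starves cells of histidine. Rapamycin inhibits the TOR kinase complex that couples growth to nutrients. Gcn2 is the kinase that senses uncharged tRNA, Gcn4 the activator made when Gcn2 is active, and Gln3 a GATA factor held back by TOR.

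The deleted genes were read on every array as a check of the strain labels. GCN4 signal was 3.85 to 86.8 on the 24 arrays of strains without it and 8080 to 23622 on the 48 others, and GLN3 signal was 0.416 to 39.4 on 36 arrays and 124 to 870 on the 36 others. GCN2 signal in untreated strains was 74.9 to 123 where it was deleted and 201 to 256 where it was not, but it stayed above background on 22 of the 24 arrays without GCN2. Over all arrays its ranges overlapped, 74.9 to 226 where it was deleted and 81.5 to 391 on the others. GCN2 signal therefore did not part all treated arrays by their label. The MAS5 signals were scaled to a trimmed mean near 1000 on every array (1000.6 to 1001.2), so they give the share of a gene in the labelled RNA and not its amount per cell. Cultures were measured in bulk, so a change in every cell and a change in some of the cells cannot be told apart. A probe set was called above background on an array where its signal exceeded the 30th percentile of that array, which lay between 66.0 and 137.

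On 3 arrays the ratio of the 3′ to the 5′ actin probe sets, a measure of RNA and labelling quality, was far out of range. It was 230 on gcn2 gln3 3-AT replicate 1, 113 on gcn2 gln3 rapamycin replicate 1 and 43.2 on gcn4 gln3 rapamycin replicate 2, and 1.31 to 5.03 on the other 69 arrays. The median log2 signal of the 31 genes was 9.04 on that gcn4 gln3 array and 11.72 to 11.87 on the other 3 arrays of its group. All 18 groups share one estimate of the spread, so these arrays also widen the errors of strains they do not belong to: the median residual SD of all probe sets was 0.41 on the log2 scale with them and 0.28 without. Results are therefore given with all 72 arrays and without the 3. Differences are log2 changes of signal with their standard error, tested with limma, and a gene rose or fell where its Benjamini-Hochberg adjusted p over all 6869 probe sets tested was under 0.05.

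In wild type, 1 h of 3-AT moved single steps of the route in both directions. ERG5, ERG8, ERG7 and ERG29 rose, as did both activators, UPC2 and ECM22, and ERG27 and ERG20 fell. In all, 8 of the 31 genes passed with 72 arrays, 6 higher and 2 lower, while of all probe sets tested 35.8% passed, 22.2% higher and 13.6% lower. With the 3 arrays left out 17 passed, 12 higher and 5 lower, against 53.7% of all probe sets (30.9% and 22.8%), with the same changes for the wild-type groups and smaller errors. The median log2 change was 0.19 for the 31 genes and 0.09 for all probe sets tested, and the median size of change was 0.40 and 0.51. The share of these genes that passed was thus below or near that of the whole array.

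The balance of rises and falls after 3-AT depended on the scaling. Centring each array on its median put the median change over all probe sets at -0.17 in wild type and that of the sterol genes at -0.07, and left 2 genes higher and 3 lower. Quantile normalization gave 4 higher and 1 lower, with a median of -0.08 for all probe sets and 0.16 for the sterol genes. ERG5 and ERG29 stayed higher and ERG27 lower under both. Shares of all probe sets that passed are not given for these scalings, here or below.

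**Figure D1:**
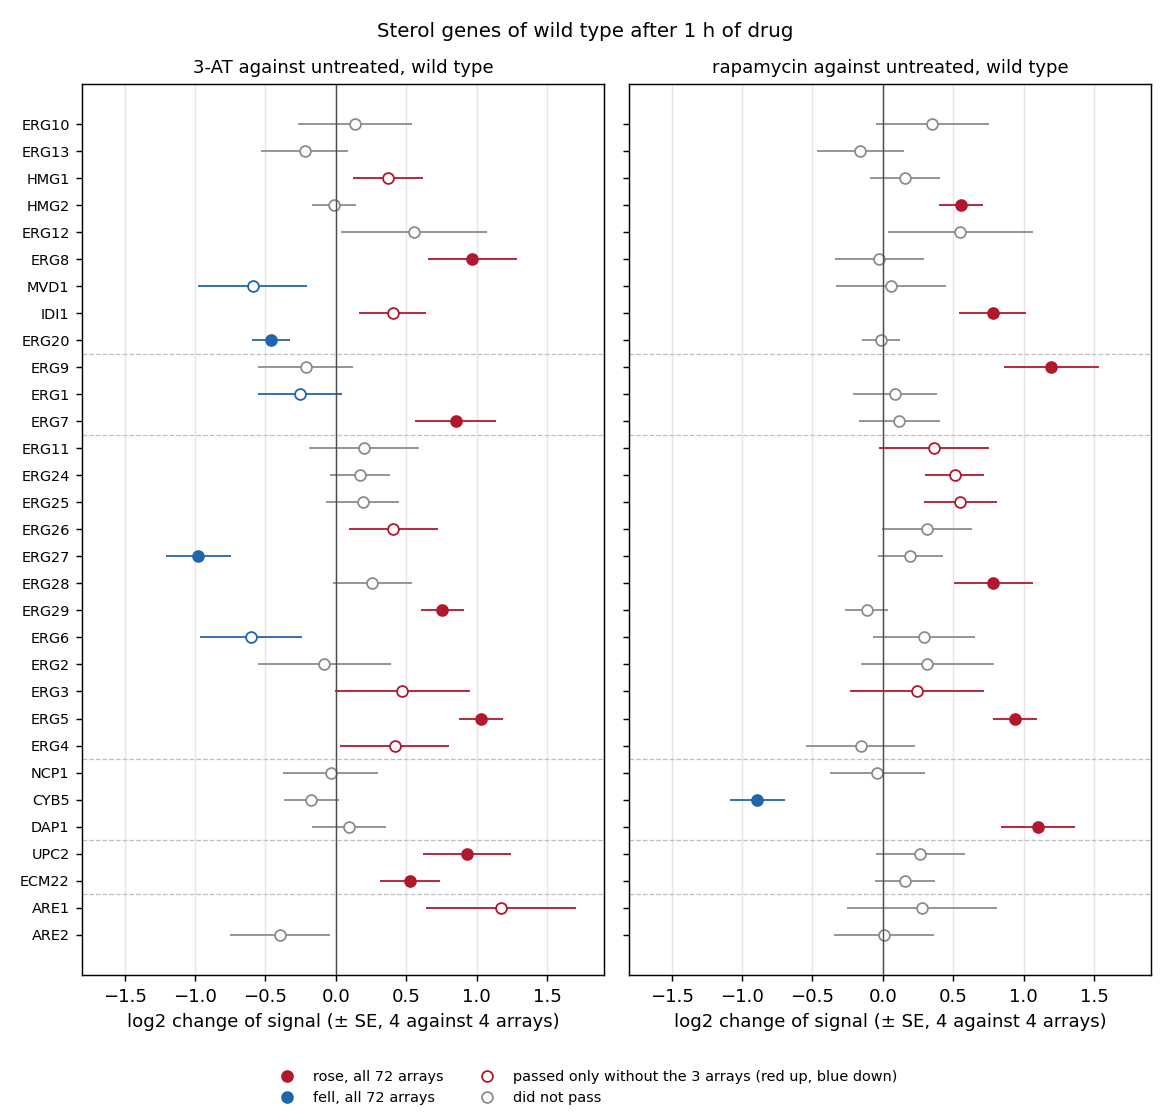
Log2 change of signal ± SE for the 31 sterol genes of wild type, in pathway order from the top, for 3-AT (left) and rapamycin (right), each against the untreated arrays, 4 against 4. Filled points passed with all 72 arrays (8 after 3-AT, 7 after rapamycin), coloured open points passed only without the 3 arrays, grey points did not pass, and dashed lines part the roles.

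In the mevalonate arm, 1 of 9 genes rose after 3-AT in wild type and 1 fell, while 22.2% of all probe sets rose and 13.6% fell. ERG8 (YMR220W), the phosphomevalonate kinase, had signals of 7291, 7518, 6328 and 6476 on the 3-AT arrays and 3618, 3292, 3286 and 3933 on the untreated arrays. Every 3-AT array was above every untreated array, and the log2 change was 0.97 ± 0.32 (adjusted p = 0.012). It missed the threshold after median centring (0.71, adjusted p = 0.061) and without replicate 1, 3 or 4 (adjusted p 0.056 to 0.062). ERG20 (YJL167W), the farnesyl diphosphate synthase at the branch to sterols, dolichol, haem A and ubiquinone, gave 6499, 4880, 6110 and 5700 after 3-AT against 7480, 7284, 7220 and 10061 untreated. It fell by 0.46 ± 0.13 (adjusted p = 0.0049), with no overlap, but did not pass after quantile normalization (-0.32, adjusted p = 0.056) or without replicate 4 (-0.34, adjusted p = 0.12), where the highest untreated array stands. Without the 3 arrays HMG1 (0.37 ± 0.10) and IDI1, the isopentenyl diphosphate isomerase (0.40 ± 0.17), also rose, and MVD1, the mevalonate diphosphate decarboxylase, fell by 0.59 ± 0.16.

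The genes from squalene to lanosterol did not move together. ERG7 (YHR072W), the lanosterol synthase that closes the sterol rings, had 1919, 2418, 2891 and 2863 on 3-AT arrays and 1272, 1634, 1574 and 1104 on untreated arrays. The groups did not overlap and the change was 0.85 ± 0.29 (adjusted p = 0.016). It did not pass after median centring (0.59, adjusted p = 0.11) or without replicate 3 (adjusted p = 0.094) or 4 (adjusted p = 0.20). ERG9, the squalene synthase, changed by -0.22 ± 0.34 and ERG1, the squalene epoxidase, by -0.26 ± 0.30, neither passing with 72 arrays, while without the 3 arrays ERG1 fell by 0.26 ± 0.10.

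Among the 12 genes from lanosterol to ergosterol, 2 rose after 3-AT in wild type and 1 fell, with a median change of 0.23. Of all probe sets 22.2% rose and 13.6% fell, with a median of 0.09. ERG5 (YMR015C), the side-chain desaturase and a haem enzyme, gave 2574, 2517, 2708 and 2557 after 3-AT and 1131, 1890, 1188 and 1013 untreated. It had the largest rise of the genes that passed, 1.03 ± 0.16 (adjusted p = 2.98e-07), and the 3-AT arrays lay within a narrow band above all untreated ones. ERG29 (YMR134W), a membrane protein linked to the methyl sterol oxidase step, had 369, 342, 375 and 398 after 3-AT and 216, 174, 220 and 281 untreated, a rise of 0.76 ± 0.15 (adjusted p = 7.2e-05) with no overlap.

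ERG27 (YLR100W), the keto reductase of the demethylation complex, was the one gene of this arm that fell with 72 arrays. Its signals were 2263, 2123, 2037 and 2160 on 3-AT arrays and 4546, 3367, 5183 and 3992 on untreated arrays. The groups were well apart and the log2 change was -0.98 ± 0.23 (adjusted p = 0.00053), which passed in each of the 16 alternatives. ERG26, the dehydrogenase of the same complex, changed by 0.41 ± 0.32 and did not pass, and it rose without the 3 arrays (0.41 ± 0.16). ERG25, the oxidase of that complex, and ERG28, its scaffold, did not pass either way (0.19 ± 0.26 and 0.26 ± 0.28). ERG3 and ERG4, a desaturase and the last reductase, rose and ERG6, the sterol methyltransferase, fell only without the 3 arrays, by 0.47 ± 0.10, 0.42 ± 0.14 and -0.60 ± 0.19.

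Both sterol-responsive activators rose after 3-AT in wild type. UPC2 was dim, with signals of 139, 159, 161 and 155 on 3-AT arrays and 78.2, 110, 61.6 and 79.1 on untreated arrays, and it was above background on 4 of 4 and 1 of 4 of them. Its change was 0.93 ± 0.31 (adjusted p = 0.016), and it did not pass after median centring (0.67) or quantile normalization (0.68), or without replicate 3 (0.78) or 4 (0.92). ECM22 gave 794, 899, 1150 and 987 after 3-AT and 480, 548, 949 and 754 untreated. These groups overlapped, and its change of 0.53 ± 0.21 was near the threshold (adjusted p = 0.048) and passed in 8 of 16 alternatives. It was under the threshold again without the 3 arrays (adjusted p = 0.027) and above it without any 1 replicate number (adjusted p 0.051 to 0.17).

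The acyltransferases differed in what could be measured. ARE1 signals were 2090, 2201, 2129 and 1848 after 3-AT and 1045, 1073, 927 and 681 untreated, with no overlap. The change was 1.17 ± 0.53, which did not pass with 72 arrays (adjusted p = 0.080) and passed without the 3 (1.17 ± 0.25, adjusted p = 8.46e-05). It also passed with the replicate number of each strain as a block (adjusted p = 0.041). That block was added after seeing the data, and numbers were not taken to pair the arrays for 3-AT in wild type. ARE2 was not above background on any wild-type array and has no fold there. Of the electron and haem partners, none passed after 3-AT: NCP1, the cytochrome reductase, changed by -0.04 ± 0.34, CYB5 by -0.17 ± 0.19 and DAP1 by 0.09 ± 0.26.

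Rapamycin raised ERG9, DAP1, ERG5, ERG28, IDI1 and HMG2 in wild type and lowered CYB5. Of these, ERG5 had also risen after 3-AT with all 72 arrays. With 72 arrays 7 of the 31 genes passed, 6 higher and 1 lower, against 37.9% of all probe sets tested, 22.2% higher and 15.7% lower. With the 3 left out 11 passed, 10 higher and 1 lower, against 54.8% (33.0% and 21.8%). The median change was 0.27 for the sterol genes and 0.14 for all probe sets, and the median size of change was 0.27 and 0.51. Median centring gave 5 higher and 1 lower and quantile normalization 7 and 1.

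In the mevalonate arm, 2 of 9 genes rose after rapamycin, while 22.2% of all probe sets rose. HMG2, 1 of the paired HMG-CoA reductases that set the pace of the arm, had 2149, 1893, 1729 and 2274 on rapamycin arrays and 1279, 1104, 1288 and 1885 on untreated arrays. A single untreated array reached into the treated range, and the change was 0.56 ± 0.16 (adjusted p = 0.0031), or 0.42 after median centring, which did not pass (adjusted p = 0.055). HMG1, its paralogue, gave 3962, 3576, 3588 and 3222 against 3073, 3462, 3297 and 3039, which overlapped, and its change of 0.16 ± 0.25 did not pass. IDI1 had 1510, 1873, 1911 and 1568 after rapamycin and 924, 1200, 960 and 919 untreated, all treated arrays above all untreated ones, and rose by 0.78 ± 0.24 (adjusted p = 0.0069). It missed the threshold without replicate 3 (0.71, adjusted p = 0.064).

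ERG9 had the largest change of the 31 genes after rapamycin in wild type. Squalene synthase is the first enzyme committed to sterols. Its signals were 5343, 5032, 5364 and 4417 on rapamycin arrays and 1932, 2074, 2451 and 2357 on untreated arrays. The groups were far apart and the log2 change was 1.20 ± 0.34 (adjusted p = 0.0032), with 1 alternative above the threshold (without replicate 1, adjusted p = 0.055). The next enzymes, ERG1 (0.09 ± 0.30) and ERG7 (0.12 ± 0.29), did not pass with or without the 3 arrays.

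Of the 12 genes from lanosterol to ergosterol, 2 rose after rapamycin and none fell, while 22.2% of all probe sets rose and 15.7% fell. None of the 12 was lower at an unadjusted p under 0.05 in limma. ERG5 gave 2310, 2459, 2566 and 2391 after rapamycin against 1131, 1890, 1188 and 1013 untreated, a rise of 0.94 ± 0.16 (adjusted p = 1.79e-06) without overlap. ERG28 gave 1639, 2668, 2455 and 1886 against 1083, 1641, 1367 and 947, where 1 array of each group crossed by a hair, and rose by 0.78 ± 0.28 (adjusted p = 0.023). Leaving out replicate 1, 3 or 4 put it above the threshold (adjusted p 0.068 to 0.14). Without the 3 arrays, ERG11, the lanosterol demethylase that azole drugs inhibit, also rose (0.36 ± 0.13), as did ERG24, a sterol reductase (0.51 ± 0.16, and adjusted p = 0.035 with the block on all 72 arrays), ERG25 (0.55 ± 0.17) and ERG3 (0.24 ± 0.10).

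Of the partner proteins, DAP1 rose and CYB5 fell after rapamycin. DAP1 (YPL170W), which binds haem and works with the demethylase Erg11, had 3276, 3107, 3231 and 2214 on rapamycin arrays and 1262, 1252, 1476 and 1475 on untreated arrays. Replicate 4 stood apart from the other rapamycin arrays but still lay above all untreated ones, and the change was 1.10 ± 0.26 (adjusted p = 0.00056). CYB5 (YNL111C), the small cytochrome that feeds electrons to several sterol enzymes, gave 1076, 1440, 1076 and 987 after rapamycin and 1967, 2999, 1652 and 1998 untreated. It was lower on every rapamycin array than on any untreated one, with a log2 change of -0.89 ± 0.19 (adjusted p = 0.00016), and passed in each of the 16 alternatives. UPC2 (0.27 ± 0.31), ECM22 (0.15 ± 0.21) and ARE1 (0.27 ± 0.53) did not pass, and UPC2 was above background on 2 of 4 rapamycin arrays.

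Set directly against each other in wild type, 3-AT and rapamycin arrays differed at 10 of the 31 genes, 4 higher after 3-AT and 6 lower, against 35.6% of all probe sets, 19.8% higher and 15.8% lower. The changes in this comparison use no untreated array, whereas both responses above share them. The errors still come from the spread that all groups share. Higher after 3-AT were ERG8 (0.99 ± 0.32, adjusted p = 0.010), ERG29 (0.87 ± 0.15), ERG7 (0.73 ± 0.29) and CYB5 (0.72 ± 0.19). Lower after 3-AT were ERG9 (-1.41 ± 0.34), ERG27 (-1.17 ± 0.23), DAP1 (-1.01 ± 0.26), ERG6 (-0.89 ± 0.36), HMG2 (-0.57 ± 0.16) and ERG20 (-0.44 ± 0.13), with adjusted p of 0.047 for ERG6 and 0.0066 or less for the other 5. ERG5, which rose with both drugs, differed by 0.09 ± 0.16 (adjusted p = 0.70). With the 3 arrays left out 17 genes differed, 7 higher and 10 lower, against 51.8% (27.4% and 24.3%). ERG7 and ERG6 each passed in 12 of 16 alternatives, and the 8 others in at least 14. With the replicate number of each strain as a block UPC2 also passed, higher after 3-AT (0.67, adjusted p = 0.049). Numbers were not taken to pair 3-AT with untreated arrays in wild type.

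The response to 3-AT was then followed through the 5 mutants. With 72 arrays, gcn2 had 7 genes higher and 2 lower, against 38.5% of all probe sets (25.4% higher, 13.1% lower). The gcn4 strain also had 7 higher and 2 lower, against 45.1% (29.5% and 15.7%), and gln3 had 4 and 2, against 30.7% (21.5% and 9.23%). Of the double mutants, gcn2 gln3 had 5 higher and 3 lower, against 39.2% (27.9% and 11.3%), and gcn4 gln3 had 6 and 2, against 42.2% (28.5% and 13.6%). Median centring again moved the balance of higher and lower genes, to 4 and 4 for gcn2, 5 and 7 for gcn4 and 1 and 3 for gln3, and to 3 and 5 for the gcn2 gln3 strain and 3 and 6 for gcn4 gln3. Leaving out the 3 arrays, the genes that passed numbered 16 for gcn2 (55.8% of all probe sets), 18 for gcn4 (62.3%), 12 for gln3 (48.5%), 12 for gcn2 gln3 (52.8%) and 14 for gcn4 gln3 (59.8%). With the replicate number of each strain as a block on 72 arrays, ERG26 also rose (0.70, adjusted p = 0.029) and CYB5 fell (-0.41, adjusted p = 0.026) in gcn4. With this block ERG26 (0.71, adjusted p = 0.030) and ERG6 (-0.82, adjusted p = 0.044) also passed in gcn2, and UPC2 in gcn4 gln3 (0.66, adjusted p = 0.044). In gcn2 and gcn4 gln3 after 3-AT, numbers were not taken to pair the arrays.

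After 3-AT, ERG8, ERG29 and ERG5 rose and ERG20 and ERG27 fell in all 6 strains. These are 3 and 2 of 31 genes, shares near those of the whole array, where 11.8% of all probe sets rose and 5.05% fell in all 6. ERG8 changed by 0.97 (wild type) to 1.24 (gcn4 gln3) and ERG29 by 0.71 (gln3) to 1.16 (gcn4 gln3). ERG27 changed by -1.44 in gcn4, where its signals of 2006, 1740, 2625 and 1488 after 3-AT lay below 5945, 5299, 5194 and 4488 untreated, and by -0.69 in gln3, where they were 3218, 2782, 3273 and 2611 against 4737, 4476, 5540 and 4434. ERG5 changed least in gln3 as well (0.62 ± 0.16). None of these strain differences from wild type passed the test of the difference itself. HMG1 and ARE1 also rose in all 6 strains once the 3 arrays were left out, which makes 5 of 31 genes, against 17.9% of all probe sets. With all 72 arrays 20 of the 31 genes passed in no strain (36.8% of all probe sets), and with the 3 left out 8 did (17.0%).

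**Figure D2:**
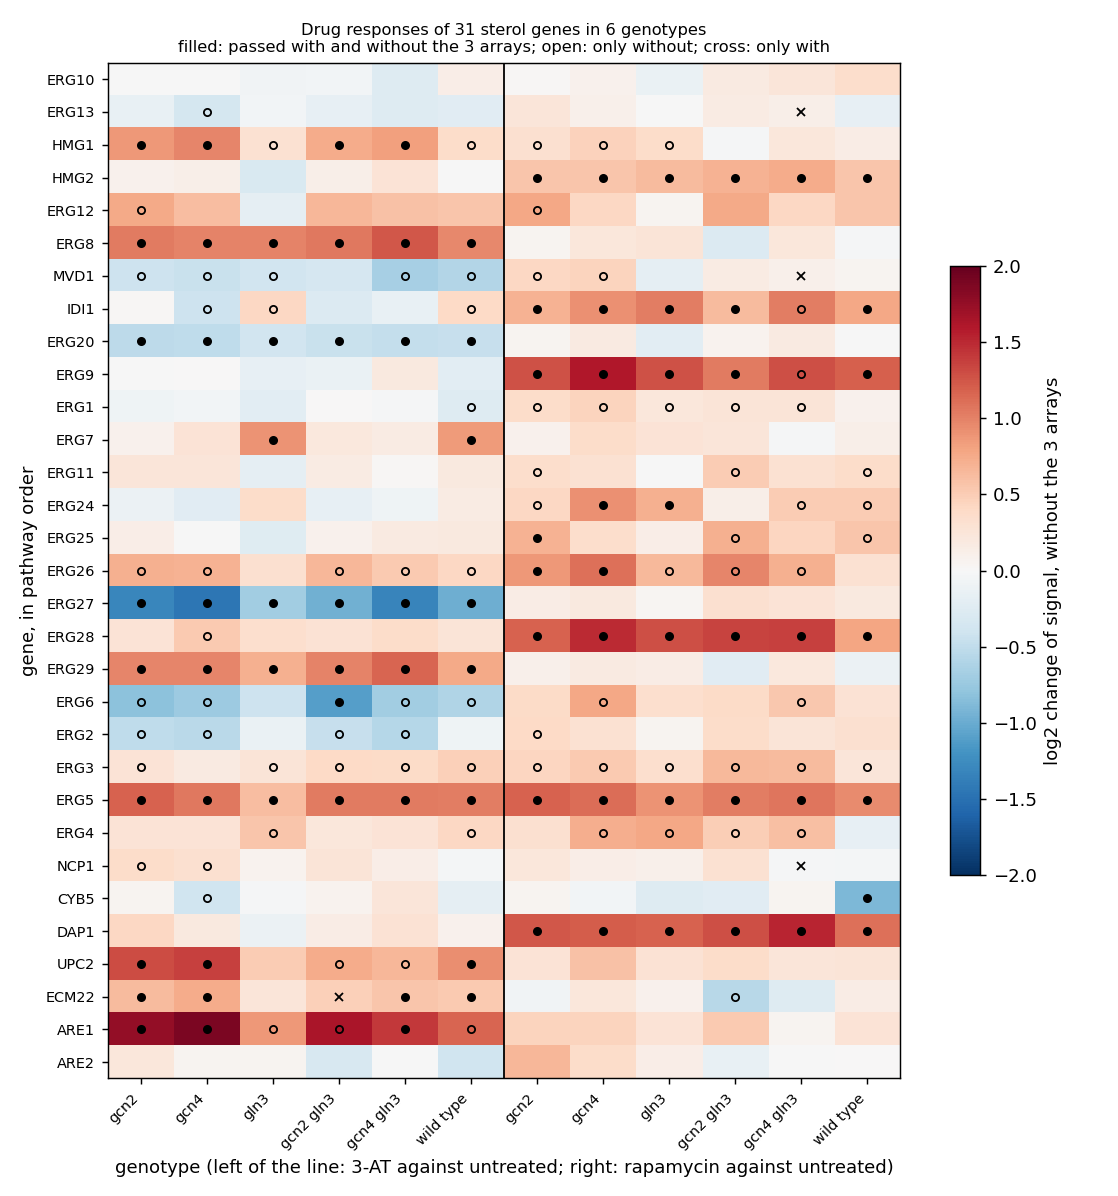
Log2 change of signal against the untreated arrays of the same strain for 31 sterol genes (down, pathway order) in 6 genotypes (across), after 3-AT on the left and rapamycin on the right, fitted without the 3 arrays with an actin ratio over 20. Filled dots passed with and without those arrays, open circles only without them and crosses only with them. ERG8, ERG29 and ERG5 are red and ERG20 and ERG27 blue in every 3-AT column, and HMG2, ERG28, ERG5 and DAP1 red in every rapamycin column.

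After rapamycin, HMG2, ERG28, ERG5 and DAP1 rose in all 6 strains, which is 4 of 31 genes, against 8.21% of all probe sets. For gcn4 gln3 none of the 4 passed when only the compared arrays were fitted (adjusted p 0.195 to 0.524). By strain, 8 genes rose in gcn2, where 29.3% of all probe sets passed (17.6% higher, 11.8% lower), and 8 in gcn4, against 34.8% (22.9% and 11.9%). In gln3 7 rose, against 31.4% (21.2% and 10.2%), and in the gcn2 gln3 strain 6, against 27.0% (16.6% and 10.5%). The gcn4 gln3 strain had 4 higher and 3 lower, against 43.1% (23.1% and 20.1%). It had 7 higher and 4 lower with the replicate number of each strain as a block, though numbers were not taken to pair its arrays. That block also added ARE2 in gcn2 (0.66, adjusted p = 0.049) and ECM22 in the gcn2 gln3 strain (-0.44, adjusted p = 0.034). In the other 4 mutants none fell without the block, and at an unadjusted p under 0.05 in limma 1 was lower in gcn2 gln3 and 0 in the others. Median centring gave 5 higher and 2 lower in gln3, 6 and 1 in gcn2 gln3, and 4 and 5 in gcn4 gln3, and quantile normalization gave 8 and 1 in gcn2 gln3. In gcn4 gln3 ERG13, the HMG-CoA synthase (-0.74), MVD1 (-0.97) and NCP1 (-0.83) were lower with 72 arrays, and without the 3 arrays, 1 of which is the array of low median in this group, their changes were 0.12, 0.10 and -0.02 and did not pass. Leaving out the 3 arrays, 16 genes passed for gcn2 (47.5% of all probe sets), 14 for gcn4 (52.8%), 12 for gln3 (49.2%), 13 for gcn2 gln3 (40.9%) and 12 for gcn4 gln3 (44.7%), with 12 higher and 1 lower in gcn2 gln3 (ECM22, which changed by -0.55 ± 0.22) and all higher in the 4 others, and IDI1, ERG9 and ERG3 joined those that rose in all 6 strains, 7 of 31 genes against 15.4% of all probe sets.

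Among the genes that rose after rapamycin, ERG9 and DAP1 had the largest changes in wild type. ERG9 signals after rapamycin were 4940, 5144, 6238 and 4894 in gcn2, 6517, 6622, 6917 and 7131 in gcn4, and 4465, 4738, 6196 and 5114 in gln3, and the untreated arrays of these strains lay between 1825 and 2547. In gcn2 gln3 they were 4468, 4567, 5925 and 4408, and in gcn4 gln3 3747, 356, 5688 and 4753, where the value of 356 is the array of high actin ratio. The changes, each ± 0.34, were 1.27 for gcn2, 1.61 for gcn4, 1.27 for gln3, 1.00 for gcn2 gln3 and 0.36 for gcn4 gln3, where the rise passed only without the 3 arrays (1.29). DAP1 changed by 1.00 (gcn4 gln3) to 1.24 in the 5 mutants, and by 1.18 to 1.52 without the 3 arrays, where gcn4 gln3 had 1.52, against 1.10 in wild type. ERG28 changed by 0.73 (gcn4 gln3) to 1.49 (gcn4), and by 1.18 to 1.49 in the 5 mutants without the 3 arrays, against 0.78 in wild type, a difference that did not pass in any mutant.

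**Figure D3:**
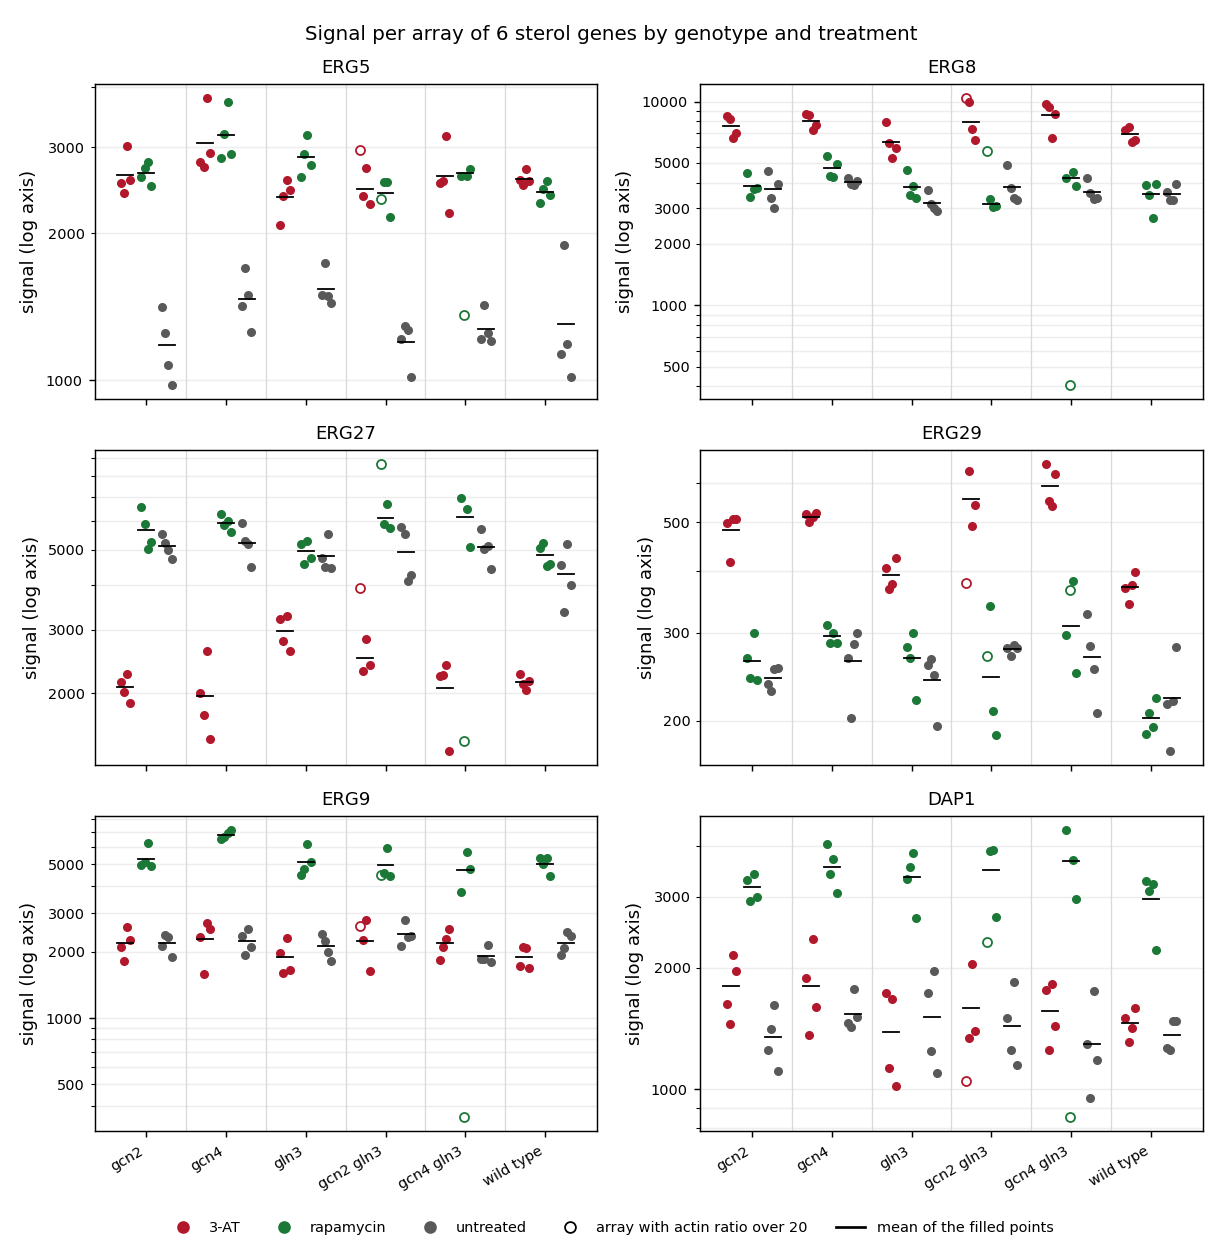
Signal on each array (log axis) for 6 sterol genes by genotype, with 3-AT left of rapamycin and rapamycin left of untreated in each strain, and black bars for the mean of the filled points. Hollow points are the 3 arrays with an actin ratio over 20. For ERG8, ERG29, ERG27 and ERG5 the 3-AT arrays lay apart from the untreated arrays of the same strain in all 6 strains. For ERG9, DAP1 and ERG5 the rapamycin arrays did so in 5 of 6 strains, counting the hollow points.

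Few differences between mutant and wild-type responses passed. For each drug they all subtract the same wild-type arrays, so differences of 1 gene in several mutants are not independent. For 3-AT, none of the 155 differences (31 genes in 5 mutants) passed with limma on 72 arrays and 1 had an unadjusted p under 0.05, while of all probe sets 3.42% passed for gcn2, 5.63% for gcn4, 0.0582% for gln3, 4.99% for gcn2 gln3 and 5.58% for gcn4 gln3. With the 3 arrays left out 6 passed, of 3 genes, while the shares of all probe sets were 8.88% for gcn2, 14.4% for gcn4, 0.815% for gln3, 10.5% for gcn2 gln3 and 15.1% for gcn4 gln3. ERG7 rose after 3-AT in gln3 and wild type, but its signals were 1359, 1558, 1753 and 1581 on 3-AT arrays of gcn2 against 1616, 1520, 1521 and 1251 untreated, and 1765, 1454, 1851 and 1960 in gcn4 gln3 against 1726, 1951, 1360 and 1276. Both strains overlapped with their untreated arrays, and their responses were 0.77 and 0.68 lower on the log2 scale than that of wild type. In gln3 the 3-AT arrays (2547, 2460, 3086 and 3172) lay above all untreated ones (1422, 1821, 1640 and 1211), with a change of 0.89 ± 0.29.

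HMG1 went the other way. Its 3-AT signals were 5737, 6260, 5972 and 5457 in gcn2 and 6306, 6889, 7260 and 6443 in gcn4, where the untreated arrays gave 3192, 3283, 2875 and 3555 in gcn2 and 3226, 3778, 3233 and 3423 in gcn4. In gcn4 gln3 they were 6617, 7174, 7412 and 6419, against 3517, 4385, 3869 and 3976 untreated. All were above every wild-type 3-AT array (3685, 4502, 4567 and 3944). The responses exceeded that of wild type by 0.49 ± 0.14 in gcn2, 0.61 ± 0.14 in gcn4 and 0.44 ± 0.14 in gcn4 gln3 without the 3 arrays (adjusted p = 0.011, 0.00079 and 0.019). In gcn2 gln3 the change was 0.74 without the 3 arrays and in gln3 it was 0.31, and neither differed from wild type by a margin that passed.

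IDI1 differed in gcn4 alone among the 5 tests made for it after 3-AT. Its signals were 892, 671, 698 and 784 on gcn4 3-AT arrays and 873, 919, 1111 and 1160 on untreated ones, against 1142, 984, 1510 and 1768 on wild-type 3-AT arrays. The response was 0.82 ± 0.24 lower in gcn4 than in wild type with the 3 arrays left out (adjusted p = 0.011).

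For rapamycin, 2 of 155 differences passed with 72 arrays, both of CYB5, and 7 had an unadjusted p under 0.05. The share of all probe sets was 0.757% for gcn2, 1.06% for gcn4, 0.903% for gln3, 3.3% for gcn2 gln3 and 4.12% for gcn4 gln3. CYB5 after rapamycin was 2281, 1799, 1559 and 1560 in gcn2, 2925, 2115, 2082 and 2216 in gcn4, 3408, 2007, 1626 and 1432 in gcn2 gln3 and 1661, 2190, 1999 and 1850 in gcn4 gln3. These all overlap with the untreated arrays of the same strains, unlike wild type, where rapamycin arrays stopped at 1440 and untreated arrays began at 1652. The response exceeded that of wild type by 0.92 ± 0.27 in gcn2 gln3 and 1.01 ± 0.27 in gcn4 gln3 (adjusted p = 0.042 and 0.018). Without the 3 arrays it was 0.67 in gcn2 gln3, which did not pass (adjusted p = 0.072), and 0.95 in gcn4 gln3, 0.94 in gcn2 and 0.83 in gcn4, which did, while gln3 did not (0.63, adjusted p = 0.10). With the replicate number of each strain as a block on all 72 arrays, gcn2, gcn4 and both double mutants passed (adjusted p = 0.014, 0.034, 0.0051 and 0.0019). Numbers were not taken to pair the arrays of gcn4 gln3. The difference in gcn2 gln3 did not pass without any 1 replicate number (adjusted p 0.095 to 0.21), nor that in gcn4 gln3 without replicate 2, 3 or 4 (adjusted p 0.085 to 0.23), and neither passed when only the compared arrays were fitted (adjusted p = 0.24 and 0.35).

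ERG4 also differed in more than 1 mutant, and only once the 3 arrays were left out. Its differences all use the same wild-type arrays, among them the low rapamycin value of 2667, so they are not independent. The last enzyme of the route had 7224, 8064, 7556 and 8528 on rapamycin arrays of gcn4 and 5834, 6678, 6525 and 5625 in gln3, where untreated arrays gave 4763, 4722, 4838 and 4527 in gcn4 and 4575, 4192, 2270 and 3883 in gln3. Wild type gave 3953, 4276, 2667 and 3549 after rapamycin against 3928, 4199, 4042 and 3714 untreated, an overlap with a change of -0.16. Without the 3 arrays the response exceeded that of wild type by 0.89 for gcn4, 0.93 for gln3, 0.66 for gcn2 gln3 and 0.75 for gcn4 gln3 (adjusted p 0.0019 to 0.036), and not by a passing margin for gcn2. In all, 8 of the 155 rapamycin differences passed with the 3 arrays left out, against 1.95% of all probe sets for gcn2, 4.06% for gcn4, 4.43% for gln3, 7.86% for gcn2 gln3 and 6.96% for gcn4 gln3. ERG26 after rapamycin was 1691, 1910, 1989 and 1739 in gcn4 against 886, 830, 870 and 841 untreated, and its response was 0.78 ± 0.22 above that of wild type (adjusted p = 0.027). With 72 arrays none of these ERG4 and ERG26 differences passed, and in gcn4 gln3 that of ERG4 was -0.35.

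**Figure D4:**
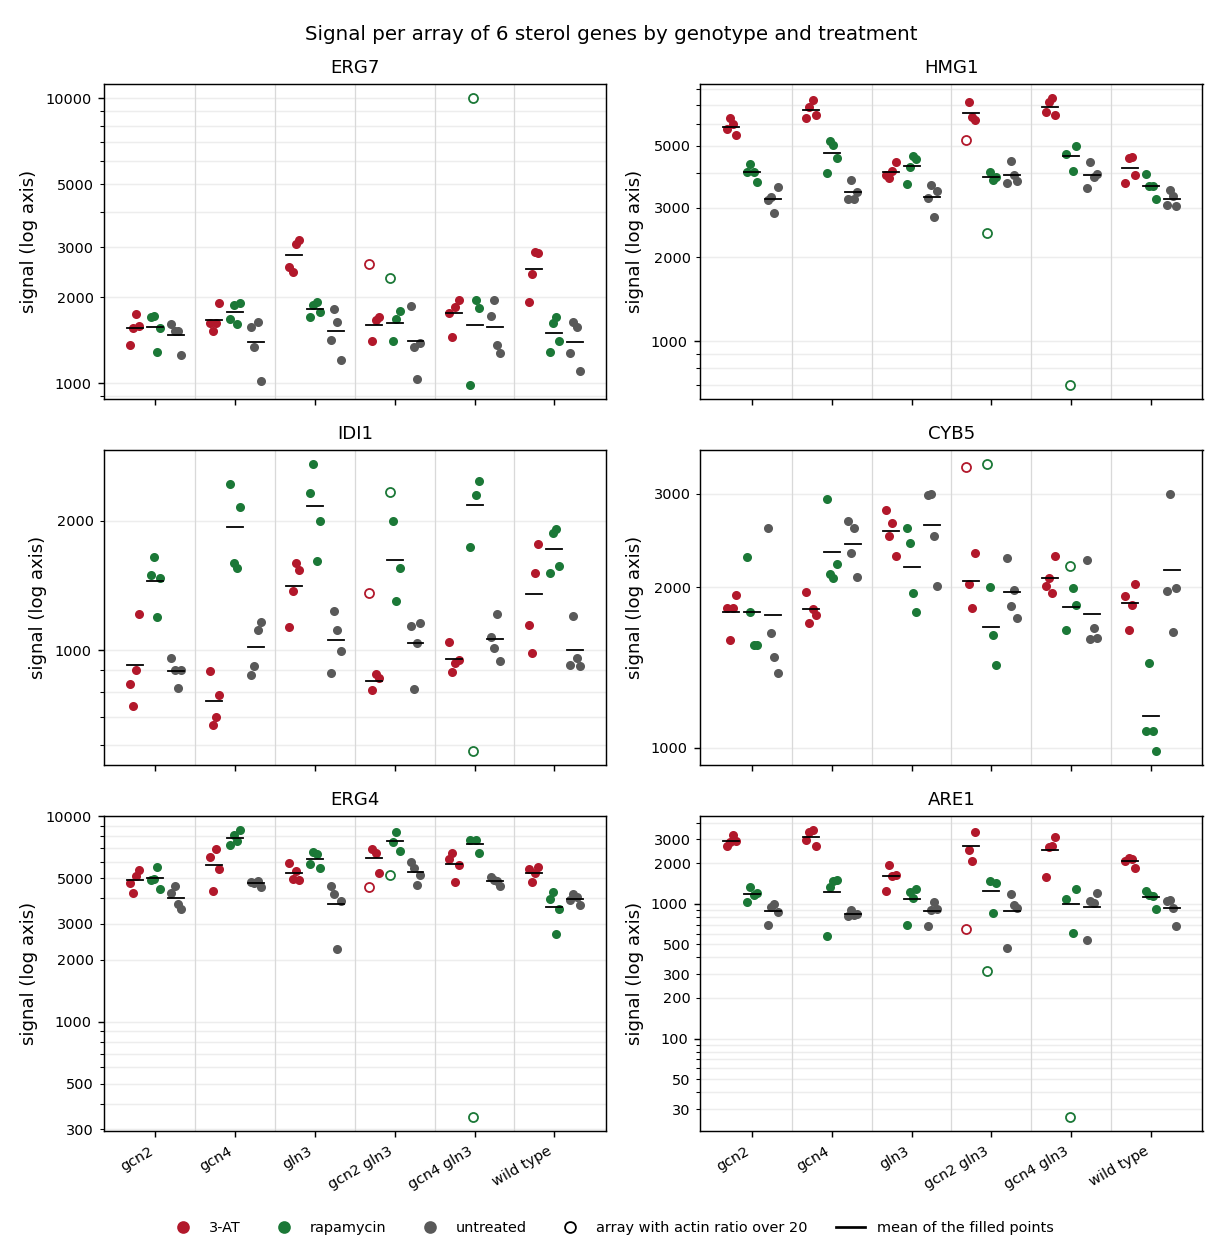
Signal on each array (log axis) for 6 sterol genes by genotype, drawn as in the plot of shared responses, with hollow points for the 3 arrays with an actin ratio over 20. ERG7 is high on 3-AT arrays of gln3 and wild type, HMG1 is highest on 3-AT arrays of the strains without GCN2 or GCN4, and CYB5 is low on the 4 rapamycin arrays of wild type.

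Without stress, the mutants did not differ from wild type at any sterol gene that passed in limma, with 72 arrays or without the 3. Of 155 differences, 2 had an unadjusted p under 0.05 with 72 arrays and 11 without the 3, and with array weights 2 passed. Over all probe sets, 0.146% passed for gcn2, 1.21% for gcn4, 0.801% for gln3, 1.34% for gcn2 gln3 and 1.19% for gcn4 gln3, and with the 3 arrays left out 0.204%, 3.29%, 3.09%, 3.9% and 4.5% in that order. The largest difference was that of MVD1 in gcn2 gln3, 0.50 ± 0.39 (adjusted p = 1.0). A p above the threshold does not show that the levels were equal.

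The paralogues were then set side by side. HMG1 rose after 3-AT in gcn2, gcn4, gcn2 gln3 and gcn4 gln3 with 72 arrays (0.86, 0.98, 0.66 and 0.81) and in no strain after rapamycin, where it passed in gcn2, gcn4 and gln3 without the 3 arrays (0.32, 0.45 and 0.37), whereas HMG2 changed by 0.55 to 0.66 after rapamycin in all 6 strains and by -0.30 to 0.28 after 3-AT, which passed in none. The difference between the paralogues was not tested. UPC2 rose after 3-AT in gcn2 (signals of 225, 214, 192 and 211, against 86.8, 82.2, 68.6 and 104 untreated), gcn4 (157, 221, 164 and 273, against 68.7, 61.0, 68.4 and 120) and wild type, by 1.31, 1.37 and 0.93. It was above background on all 4 3-AT arrays of these strains but on 2 of 4 untreated arrays in gcn2 and 1 of 4 in gcn4, so the untreated levels are in part no more than background. ECM22 rose in those strains and in both double mutants, by 0.53 to 0.74, and in gln3 changed by 0.24 ± 0.21. UPC2 also rose in the double mutants with the 3 arrays left out (0.74 and 0.66), and ECM22 in gcn2 gln3 then no longer passed (0.48).

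ARE1 changed most after 3-AT in gcn2 and gcn4. Its 3-AT signals were 2685, 2862, 3249 and 2929 in gcn2 and 2954, 3425, 3501 and 2695 in gcn4, against untreated signals of 698, 944, 1000 and 862 in gcn2 and 814, 900, 827 and 834 in gcn4. The groups lay far apart, with changes of 1.75 and 1.89, each ± 0.53 (adjusted p = 0.0067 and 0.0028). In gcn4 gln3 it rose by 1.41, and without the 3 arrays it passed in gln3 (0.86) and gcn2 gln3 (1.63). With all 72 it did not pass in gln3, and in gcn2 gln3 (1.13) it passed only with the block (adjusted p = 0.045). None of these responses differed from that of wild type by the test of the difference. ARE2 was above background on 18 of 72 arrays and passed in no comparison with or without the 3 arrays, and with the block in 1, rapamycin in gcn2.

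Some genes at the head and middle of the route did not pass in wild type. ERG12, the mevalonate kinase, has 4 probe sets, whose changes in wild type were -0.04, 0.30, 0.56 and 0.14 after 3-AT and -0.26, 0.21, 0.55 and 0.49 after rapamycin. The brightest, with 0.56 and 0.55, was used, and it did not pass. ERG10, the acetoacetyl-CoA thiolase at the head of the route, and ERG2, a sterol isomerase, also did not pass for either drug in wild type (0.14 ± 0.40 and -0.08 ± 0.47 after 3-AT, 0.35 ± 0.40 and 0.31 ± 0.47 after rapamycin).

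Across the 18 group means, some of these genes kept step with each other. Of 465 pairs of genes, 28 had a Pearson r of log2 signals over 0.8 and 27 an r under -0.5, with a median of 0.23. Leaving out the 3 arrays gave 52 and 36 such pairs and a median of 0.31. HMG2 and DAP1 had r = 0.96, ERG28 and DAP1 0.94, ERG8 and ARE1 0.94, and ERG9 and DAP1 0.93. ERG8 and ERG27 ran opposite, with r = -0.84, or -0.91 without the 3 arrays. These are descriptions over 18 points that share the same arrays, treatments and scaling. Pairs of genes outside this set were not counted, so these numbers do not mark out the sterol genes.

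Other genes of sterol uptake, storage and control were set beside the route, in lists that do not overlap with it. The lists were chosen with earlier results of these data known. After 3-AT in wild type, 6 of 8 tested genes of sterol uptake and the anaerobic cell wall passed, all higher, while 22.2% of all probe sets were higher. Without the 3 arrays 7 passed, again all higher, against 30.9% of all probe sets. The median change was 1.16 beside 0.09 for all probe sets. TIR1, a cell wall mannoprotein of cold and anaerobic growth, had signals of 10736 to 13771 on 3-AT arrays and 939 to 1181 on untreated arrays, a rise of 3.49 ± 0.23. TIR2 rose by 1.57 ± 0.37. DAN1, another such mannoprotein, was above background on 2 of 4 3-AT arrays and on 0 of 4 untreated arrays, and was at least 1.28-fold higher (adjusted p = 0.00044). The sterol uptake transporter genes AUS1 and PDR11 also rose after 3-AT, by 0.97 ± 0.17 and 0.90 ± 0.18. After rapamycin, 1 of the 8 tested genes of this list passed, against 37.9% of all probe sets. It was PDR11, which rose by 1.21 ± 0.18. With the 3 arrays left out, AUS1, the paralogue of PDR11, also rose (0.34, adjusted p = 0.0082) and TIR2 fell by 0.62 (adjusted p = 0.036). In that fit 33.0% of all probe sets were higher and 21.8% lower.

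The other regulators of sterol and hypoxic genes made up a list of 7 tested genes. ROX1, the repressor of hypoxic genes, had 982 to 1360 on 3-AT arrays and 121 to 185 on untreated ones, a rise of 2.81 ± 0.26. SUT1, a factor that promotes sterol uptake, rose after 3-AT by 1.29 ± 0.27 (536 to 923, against 255 to 353 untreated) and fell after rapamycin by 1.13 ± 0.27 (114 to 160). SPT23, an activator of the fatty acid desaturase gene, fell after 3-AT by 0.62 ± 0.19. In this list 2 of 7 genes rose and 1 fell after 3-AT (median 0.14), and 0 rose and 1 fell after rapamycin (median -0.29). The shares of all probe sets were 22.2% higher and 13.6% lower after 3-AT and 22.2% and 15.7% after rapamycin. MGA2, a relative of SPT23, fell as well after 3-AT when the 3 arrays were left out, by 0.51.

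Genes for the turnover of HMG-CoA reductase fell in part after 3-AT in wild type. HRD1, the ubiquitin ligase that marks Hmg2 for destruction, fell by 1.02 ± 0.30, UBC7, its conjugating enzyme, by 1.44 ± 0.46, and DER1, of the same degradation pathway, by 1.49 ± 0.17. These are 3 of 8 genes, while 13.6% of all probe sets fell, and the median of the 8 was 0.06. After rapamycin DER1 fell by 1.18 ± 0.17 and NSG2, a relative of the Hmg2 stabiliser NSG1, rose by 1.29 ± 0.38 (3785 to 4316, against 1500 to 1910.5 untreated). The other 6 did not pass with 72 arrays, where 22.2% of all probe sets were higher and 15.7% lower after rapamycin. HRD3, a partner of Hrd1, rose after 3-AT by 0.41 and NSG1 fell after rapamycin by 0.44 when the 3 arrays were left out.

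Haem synthesis, which the desaturases and demethylase depend on, had 0 of 8 genes passing in limma after 3-AT in wild type (1 at an unadjusted p under 0.05). Of all probe sets 35.8% passed. Without the 3 arrays HEM4 fell, by 0.32, while 53.7% of all probe sets passed. After rapamycin HEM12, the uroporphyrinogen decarboxylase, fell by 1.30 ± 0.21 (921 to 1207, against 2240 to 2908 untreated). HEM3 was above background on 0 of 4 rapamycin arrays and 2 of 4 untreated arrays and was at least 1.09-fold lower. The others of the 8 did not pass with 72 arrays, where 22.2% of all probe sets were higher and 15.7% lower. Without the 3 arrays HEM14 (0.55, adjusted p = 3.66e-06) and HEM4 (0.37, adjusted p = 0.010) rose after rapamycin and HEM2 fell by 0.65 (adjusted p = 0.0014). That makes 2 of 8 genes higher and 3 lower, against 33.0% and 21.8% of all probe sets. Among the isoprenoid branches, RER2, the dolichol synthase subunit, fell after rapamycin by 1.35 ± 0.17 and COQ1, of ubiquinone synthesis, by 0.43 ± 0.18, while SRT1, a paralogue of RER2, was at least 1.03-fold higher, with 2 of 4 rapamycin arrays and 0 of 4 untreated arrays above background. The others of the 6 genes of this list did not pass after rapamycin, against 22.2% of all probe sets higher and 15.7% lower. COQ1 also fell after 3-AT, by 0.47 ± 0.18, the only gene of those 6 that passed, against 35.8% of all probe sets.

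Sterol ester and transport genes made up the remaining lists. YEH1, a sterol ester hydrolase, rose after 3-AT by 1.13 ± 0.28. ATF2, an acetyltransferase that acts on sterols, fell after rapamycin by 1.59 ± 0.39 (118 to 187, against 437 to 560 untreated). Each was the only gene of 5 that passed with 72 arrays, against 35.8% of all probe sets after 3-AT and 37.9% after rapamycin. YEH1 (0.59) and TGL1 (0.48) rose after rapamycin without the 3 arrays. Of 13 transport genes tested, OSH2, an oxysterol-binding protein, rose after 3-AT by 1.06 ± 0.42 and NCR1, the vacuolar sterol protein akin to human NPC1, by 0.97 ± 0.17. After rapamycin 4 of the 13 rose, among them OSH7 by 0.81 ± 0.21, SWH1 by 0.77 ± 0.22 and NCR1 by 0.74 ± 0.17, with a median of 0.49 beside 0.14 for all probe sets. Of all probe sets 22.2% rose after each drug. Leaving out the 3 arrays, 5 transport genes rose and 1 fell after 3-AT, against 30.9% and 22.8% of all probe sets. After rapamycin 6 rose and 2 fell, against 33.0% and 21.8%.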

How the data were processed

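RNA of 72 samples was read on Affymetrix yeast arrays. The deposited values are linear intensity (signal) per probe set, which the authors made with GCOS and MAS5 per the submitters' processing notes, versions not given in the sources used here. Of 9335 probe sets, 60 controls were dropped, 6504 of the rest carried 1 gene, 328 several and 2443 none. The brightest probe set stood for each gene, which left 8427. Values under 16.5, the 10th percentile over the whole table, were set to it, and log2 was taken. Arrays were not scaled again, since the trimmed mean of each was already near 1000. Probe sets above an array's 30th percentile on at least 4 of 72 arrays were tested (6869, of which 5409 carried a gene name).

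A model of 18 group means was fitted with limma 3.58.1 (R 4.3.3, package data.table, version 1.17.8; 54 residual and 4.56 prior degrees of freedom), with 28 contrasts, each adjusted by Benjamini-Hochberg over all probe sets tested. Tables and plots used Python 3.11.15, numpy 2.4.6, pandas 2.3.3 and matplotlib 3.10.9. The fit was tested on simulated data for the 3-AT contrast in wild type: with 200 of 6869 probe sets changed, 51% of those changed by 1 on the log2 scale and 91% of those changed by 2 were called, with 4 false calls. The simulated noise was independent between arrays and probe sets, and in the data 35.8% of probe sets were called for this contrast. These rates therefore need not hold for the data. No pair of arrays was a copy (highest correlation 0.989). Treated and untreated arrays of the same strain and number deviated together (correlation over 0.1) in 41 of 48 pairs, and in all 4 pairs of 8 of 12 comparisons. Numbers were taken to pair the arrays there, but not for 3-AT in wild type and gcn2 or either drug in gcn4 gln3; this rests on the data, since the labels give only a number.

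Alternatives were median centring, quantile normalization, other floors and filters, the mean of a gene's probe sets, the replicate number as a block (over all strains, and, added after seeing the data, within each strain), array weights, only the compared arrays, each replicate number left out, and the 3 arrays of high actin ratio left out. The genes and lists were chosen with earlier results of these data known. Every member could be named. Signals were given for the 4 largest rises and falls past the threshold per drug in wild type, for the paralogue pairs and for differences past the threshold, and in a few further members, and up to 3 genes were named from each other list, save where all of a small count were. The transporter genes AUS1 and PDR11 were named after 3-AT in addition to 3 of their list. A search of promoters for motifs was planned and not run, as no sequences were used here. A lower bound of fold was taken where a group had no array above background, against the array's 30th percentile. The number of arrays limits the precision.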

Additional observations from a re-analysis of the deposited data

Results flagged for a closer look

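In 69 sets of 4 values (the median over the sterol genes in each group, and single genes in the wild-type groups) 1 array was looked for that stood far from the other 3. Of these sets 4 had one, and chance alone gives about 1 in 20. The median log2 signal of the sterol genes was 9.04 on gcn4 gln3 rapamycin replicate 2, and 11.72 to 11.87 on the other 3 arrays of that group. That array also had an actin ratio of 43.2. DAP1 signal was 2214 on wild-type rapamycin replicate 4 and 3107 to 3276 on the other 3. ERG20 signal was 10061 on untreated wild-type replicate 4 and 7220 to 7480 on the others. IDI1 signal was 1200 (1199.7) on untreated wild-type replicate 2 and 919 to 960 on the others.

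The remaining results are responses that differed between a mutant and wild type by a test of the difference in limma, in log2 units of mutant minus wild type. With all 72 arrays only CYB5 after rapamycin passed, by 0.92 in gcn2 gln3 and 1.01 in gcn4 gln3, among the 155 differences tested for each drug. Without the 3 arrays of high actin ratio the CYB5 difference was 0.95 in gcn4 gln3, 0.94 in gcn2 and 0.83 in gcn4. ERG4 after rapamycin then differed by 0.89 for gcn4, 0.93 for gln3, 0.66 for gcn2 gln3 and 0.75 for gcn4 gln3, and ERG26 by 0.78 for gcn4. After 3-AT, HMG1 differed by 0.49 in gcn2, 0.61 in gcn4 and 0.44 in gcn4 gln3, ERG7 by -0.77 in gcn2 and -0.68 in gcn4 gln3, and IDI1 by -0.82 in gcn4. With all 72 arrays the differences of IDI1, HMG1 and ERG7 after 3-AT had adjusted p of 0.18 to 0.82, and those of ERG4 and ERG26 after rapamycin 0.72 to 0.999.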

How the results depend on the processing

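Counts of sterol genes that passed moved with the 3 arrays of high actin ratio, array weights and the arrays fitted. Shares of all probe sets are given above for the fit without the 3 arrays, and not for the other settings. After 3-AT, leaving out the 3 arrays gave 16 genes for gcn2, 18 for gcn4, 12 for gln3, 14 for gcn4 gln3 and 17 for wild type, and array weights gave 17, 18, 15, 13 and 17 in that order and 13 for gcn2 gln3. After rapamycin, leaving them out gave 16 genes for gcn2, 14 for gcn4, 12 for gln3, 13 for gcn2 gln3, 12 for gcn4 gln3 and 11 for wild type, and array weights gave 15, 21, 12, 13, 11 and 11. Fitting only the compared arrays gave 14 genes for gcn2, 19 for gcn4, 13 for gcn4 gln3 and 14 for wild type after 3-AT, and 16 for gcn2, 14 for gcn4 and 0 for gcn4 gln3 after rapamycin. For 3-AT against rapamycin in wild type these settings gave 17, 17 and 16. Median centring gave 5 genes for wild type after 3-AT and 4 for gcn2 after rapamycin, and quantile normalization gave 5 for wild type and 5 for gcn4 gln3 after 3-AT. Among differences of response from wild type, 6 passed for 3-AT and 8 for rapamycin without the 3 arrays, 8 and 8 with array weights, and 3 and 1 with only the compared arrays. Median centring and quantile normalization each gave 1 for 3-AT, and array weights gave 2 for untreated strains. The median change after 3-AT in wild type was -0.07 after median centring and 0.30 without replicate 1.

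Leaving out 1 replicate number at a time, 3-AT counts ran from 7 to 11 for gcn2, 7 to 12 for gcn4, 2 to 9 for gln3, 4 to 8 for gcn2 gln3, 6 to 12 for gcn4 gln3 and 3 to 11 for wild type. Rapamycin counts ran from 4 to 9, 7 to 12, 6 to 9, 4 to 8, 5 to 10 and 5 to 9 in the same order, and 3-AT against rapamycin from 6 to 11. Differences of response ran from 0 to 2 for each drug and stayed at 0 for untreated strains. After rapamycin in gcn4 gln3, 3 falls turned direction: ERG13 was at 0.12 without the 3 arrays, 0.11 with array weights and 0.15 without replicate 2, MVD1 at 0.10, 0.092 and 0.17, and NCP1 at 0.015 without replicate 2, while leaving out each replicate in turn gave -1.10 to 0.15, -1.38 to 0.17 and -1.16 to 0.015. Of 543 recomputed values for 34 single-gene results, 470 kept their direction and side of the threshold, 66 kept only the direction and 7 turned. The floor, the mean of probe sets and both replicate blocks moved none of the 34. With the number as a replicate block, 8 genes passed after 3-AT and 8 after rapamycin in wild type. A replicate block within each strain, added after seeing the data, gave 9 and 8, and 11 for gcn4 gln3 after rapamycin, with 4 differences from wild type for rapamycin. Numbers were not taken to pair the arrays for 3-AT in wild type or for rapamycin in gcn4 gln3. Neither block lost a call on a sterol gene in any comparison. The block within strains was not run on untreated strains. Why counts moved between settings was not tested. Signals near background (ARE2, UPC2) limit what can be said of those genes.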
